A study of Mus musculus with 96 samples.

Results

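The mitochondrial ribosomal protein genes of mouse bone marrow dendritic cells were followed over a day of stimulation with 5 ligands of Toll-like receptors. The members were the genes whose only annotated symbol starts with Mrpl (large subunit) or Mrps (small subunit) and that lay above an intensity of 20, the floor of the deposited values, on any array. All 70 such genes on the array met this rule, 45 of the large and 25 of the small subunit, among 10543 genes and unnamed probe sets tested in all. Where several probe sets named a gene, the brightest on average was used. Of the 70 genes, 69 lay above the floor on all 96 arrays, and Mrps5 did on 95.

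The stimulated groups carry the names Lps, Pic, Pam, Cpg and Grd. What is known of the study identifies them as lipopolysaccharide for TLR4, poly(I:C), which mimics double-stranded RNA, for TLR3, a lipopeptide for TLR2, CpG DNA for TLR9 and gardiquimod for TLR7. They are set against Control, unstimulated cells of the same kind. The labels call all cells primary bone marrow dendritic cells of Mus musculus and give no strain, sex, age, dose or culture medium. Cells were taken 9 times between 0.5 and 24 h after a ligand, with 2 arrays each time, of which Cpg lacked the second at 16 h and at 24 h. Lps, Pic, Pam and Grd had 18 arrays each, Cpg had 16, and Control had 8, 1 each at 0, 1, 2, 4, 6, 8, 12 and 24 h. Samples of 0.5, 1 and 2 h are called early, those of 4, 6 and 8 h middle and those of 12, 16 and 24 h late, and each such window was compared with the 8 Control arrays. A ligand contributed 6 arrays to a window, and Cpg contributed 4 to the late one.

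Mitochondria keep ribosomes of their own, which translate the few proteins encoded by mitochondrial DNA, all of them parts of the respiratory chain and the ATP synthase. The ribosomal proteins themselves are encoded in the nucleus, made in the cytosol and imported. Some descend from bacterial ribosomal proteins and others are found only in mitochondrial ribosomes. Dendritic cells stimulated through Toll-like receptors are known to shift their energy metabolism towards glycolysis over the course of activation.

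Over the 43 pairs of arrays that share ligand and time, Pearson's r lay between 0.9852 and 0.9982, and the pooled spread of a member between such arrays was 0.10 on the log2 scale. Dendritic cell markers were measured for 10 of 11 genes, with Itgax at a mean of 3360 and Cd74 at 7980 in Control, while Flt3 and Zbtb46 were dim (28.8 and 40.4). Their summed intensity lay between 17500 and 27900 on ligand arrays and between 23800 and 25600 on Control arrays. Macrophage markers were measured for 5 of 7 listed symbols, of which Emr1 is an older name of Adgre1. In the late window they summed to 15100 to 20900 with Pam, 14800 to 21200 with Grd and 13400 to 19000 with Cpg. With Lps they summed to 11900 to 16700 and with Pic to 8730 to 11200, against 7920 to 13200 in Control. Neutrophil markers, measured for 8 of 8 genes, summed to 2300 to 3250 with Pam, 2200 to 4410 with Grd, 1620 to 3800 with Cpg, 1230 to 3050 with Lps and 3940 to 6210 with Pic in the late window, against 5200 to 8210 in Control. Dcn, the 1 fibroblast marker of 4 that was measured, read 42.5 to 169 with Pam, 46.7 to 264 with Grd, 56 to 173 with Cpg, 54.3 to 149 with Lps and 25.5 to 37.9 with Pic late, against 20.5 to 29 in Control. Cd3g and Cd2 of T cells, Cd79a and Ms4a1 of B cells, Ncr1 and Gzma of NK cells, Hba-a1 of erythroid cells and Col3a1 of fibroblasts lay at the floor on all arrays. Cd3e of T cells and Cd79b of B cells lay at 20 on every Control array and reached 26.9 and 28.4 on ligand arrays. The part of other cells in the results was not tested, and in such bulk samples fewer cells of a type and less RNA per cell cannot be told apart. Whether the arrays of a group represent separate cultures is not stated in the labels, and p-values therefore measure only the spread between samples, which may be technical. Outside plate columns 10, 11 and 12, each of Lps, Pic, Pam and Grd had rows of its own and each time a column of its own. Plate position therefore cannot be told apart from ligand and time for these 4 ligands. The 8 Control arrays and all Cpg arrays lay in columns 10, 11 and 12, apart from those of the other ligands. Control arrays lay in rows E, G and H, which also held Pam or Grd arrays. Differences of Lps, Pic, Pam and Grd from Control are therefore also differences between plate columns.

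Most mitochondrial ribosomal protein transcripts fell with each of the 5 ligands between 4 and 8 h, mainly by less than 2-fold. By 24 h the family median was above the Control mean with Lps and still below it with Pic. With Lps, the median log2 difference of the 70 members from the Control mean was 0.19 at 0.5 h, 0.08 at 1 h, -0.23 at 2 h, -0.39 at 4 h, -0.43 at 6 h, -0.45 at 8 h, -0.23 at 12 h, 0.01 at 16 h and 0.12 at 24 h. With Pic it was -0.02 at 2 h, -0.19 at 4 h, -0.45 at 8 h, -0.38 at 12 h, -0.29 at 16 h and -0.15 at 24 h. The lowest Pic and Lps medians were equal in depth, and at 12, 16 and 24 h Pic was the lower of both. With Pam the lowest median was -0.27 at 4 h and the value at 12 h was 0.01. Cpg had its lowest median of -0.32 at 6 h and Grd its lowest of -0.32 at 8 h, and both were near 0 at 24 h (-0.00 and 0.05). The 8 Control arrays ranged between -0.08 and 0.07. Arrays of 1 ligand and time differed in this median by a pooled standard deviation of 0.04.

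**Figure D1:**
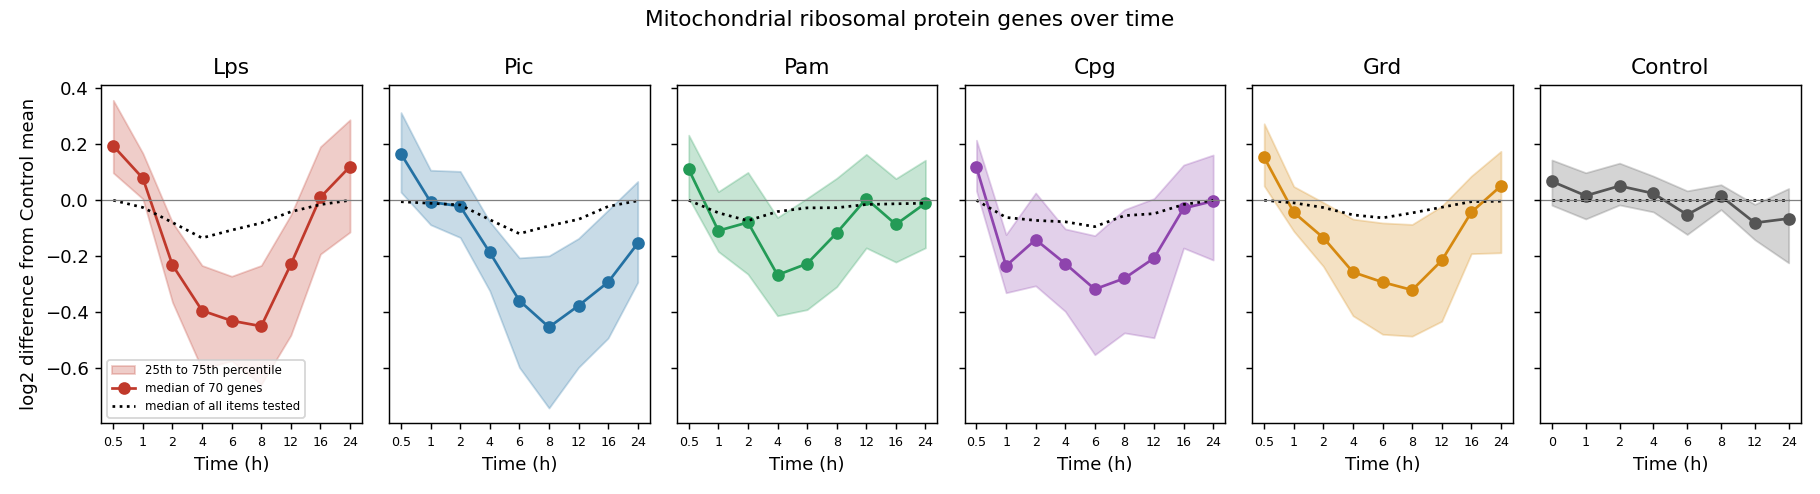
Median log2 difference from the Control mean of the 70 mitochondrial ribosomal protein genes against hours after ligand, with 1 panel per ligand and 1 for Control; the line is the median of the members, the band runs from the 25th to the 75th percentile of the members, and the dotted line is the median of all genes tested. The Lps median is lowest at 8 h (-0.45) and reaches 0.12 at 24 h, while the Pic median is still -0.15 at 24 h.

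In the middle window, 61 of 70 members were lower and 4 higher with Lps than in Control by limma with a Benjamini-Hochberg adjusted p under 0.05, with a median log2 difference of -0.42. Over all genes tested, 47.8% were lower and 26.2% higher in that comparison, with a median of -0.11. Pic had 55 members lower and 3 higher (median -0.32), against 46.3% lower and 23.1% higher of all genes (median -0.10). Grd had 49 lower and 4 higher (median -0.31), against 40.7% and 23.6% of all genes (median -0.06). Cpg had 48 lower and 6 higher (median -0.28), against 44.8% and 24.9% of all genes (median -0.08). Pam had 42 lower and 12 higher (median -0.19), against 37.7% and 25.1% of all genes (median -0.03). The 5 comparisons share the same Control arrays. Array medians over all genes also lay lower in this window, by 0.19 with Lps, 0.14 with Cpg and 0.11 with Pic on the log2 scale. Relative to them, with each array centred on its own median, the members' medians were -0.23 with Lps, -0.21 with Pic, -0.21 with Grd, -0.14 with Cpg and -0.12 with Pam. On that scale 49 members were lower and 8 higher with Lps, 45 and 8 with Pic, 40 and 13 with Grd, 38 and 14 with Cpg and 35 and 13 with Pam. The shares of all genes on that scale are not given, so these centred counts cannot be set against a background.

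Most of these differences were under 2-fold. The arrays of a ligand in the middle window lay wholly below the Control arrays for 42 members with Lps, 29 with Pic, 23 with Pam, 31 with Cpg and 30 with Grd. This held for 28.2%, 18.8%, 17.7%, 22.9% and 20% of all genes, in the same order. They lay wholly above Control for 2 members with Lps, 2 with Pic, 4 with Pam, 2 with Cpg and 1 with Grd, against 15%, 11.4%, 11.4%, 13% and 11.9% of all genes. Only 4 members passed a 2-fold fall with Lps (8.22% of all genes did), and Mrps35 alone passed it with Pam, Cpg and Grd (4%, 5.53% and 3.92% of all genes).

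Both subunits took part. Small subunit genes had 24 of 25 lower with Lps (median -0.44) and large subunit genes 37 of 45 (median -0.39), against 47.8% of all genes. With Pic, 23 small subunit genes were lower (median -0.37) and 32 large subunit genes (median -0.29), against 46.3% of all genes. With Pam, 26 of 45 large and 16 of 25 small subunit genes were lower, against 37.7% of all genes. Higher with Pam were 9 large and 3 small subunit genes, which did not exceed the 25.1% of all genes. The Pam medians were -0.16 for the large and -0.27 for the small subunit. The difference between the subunits was not tested.

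**Figure D2:**
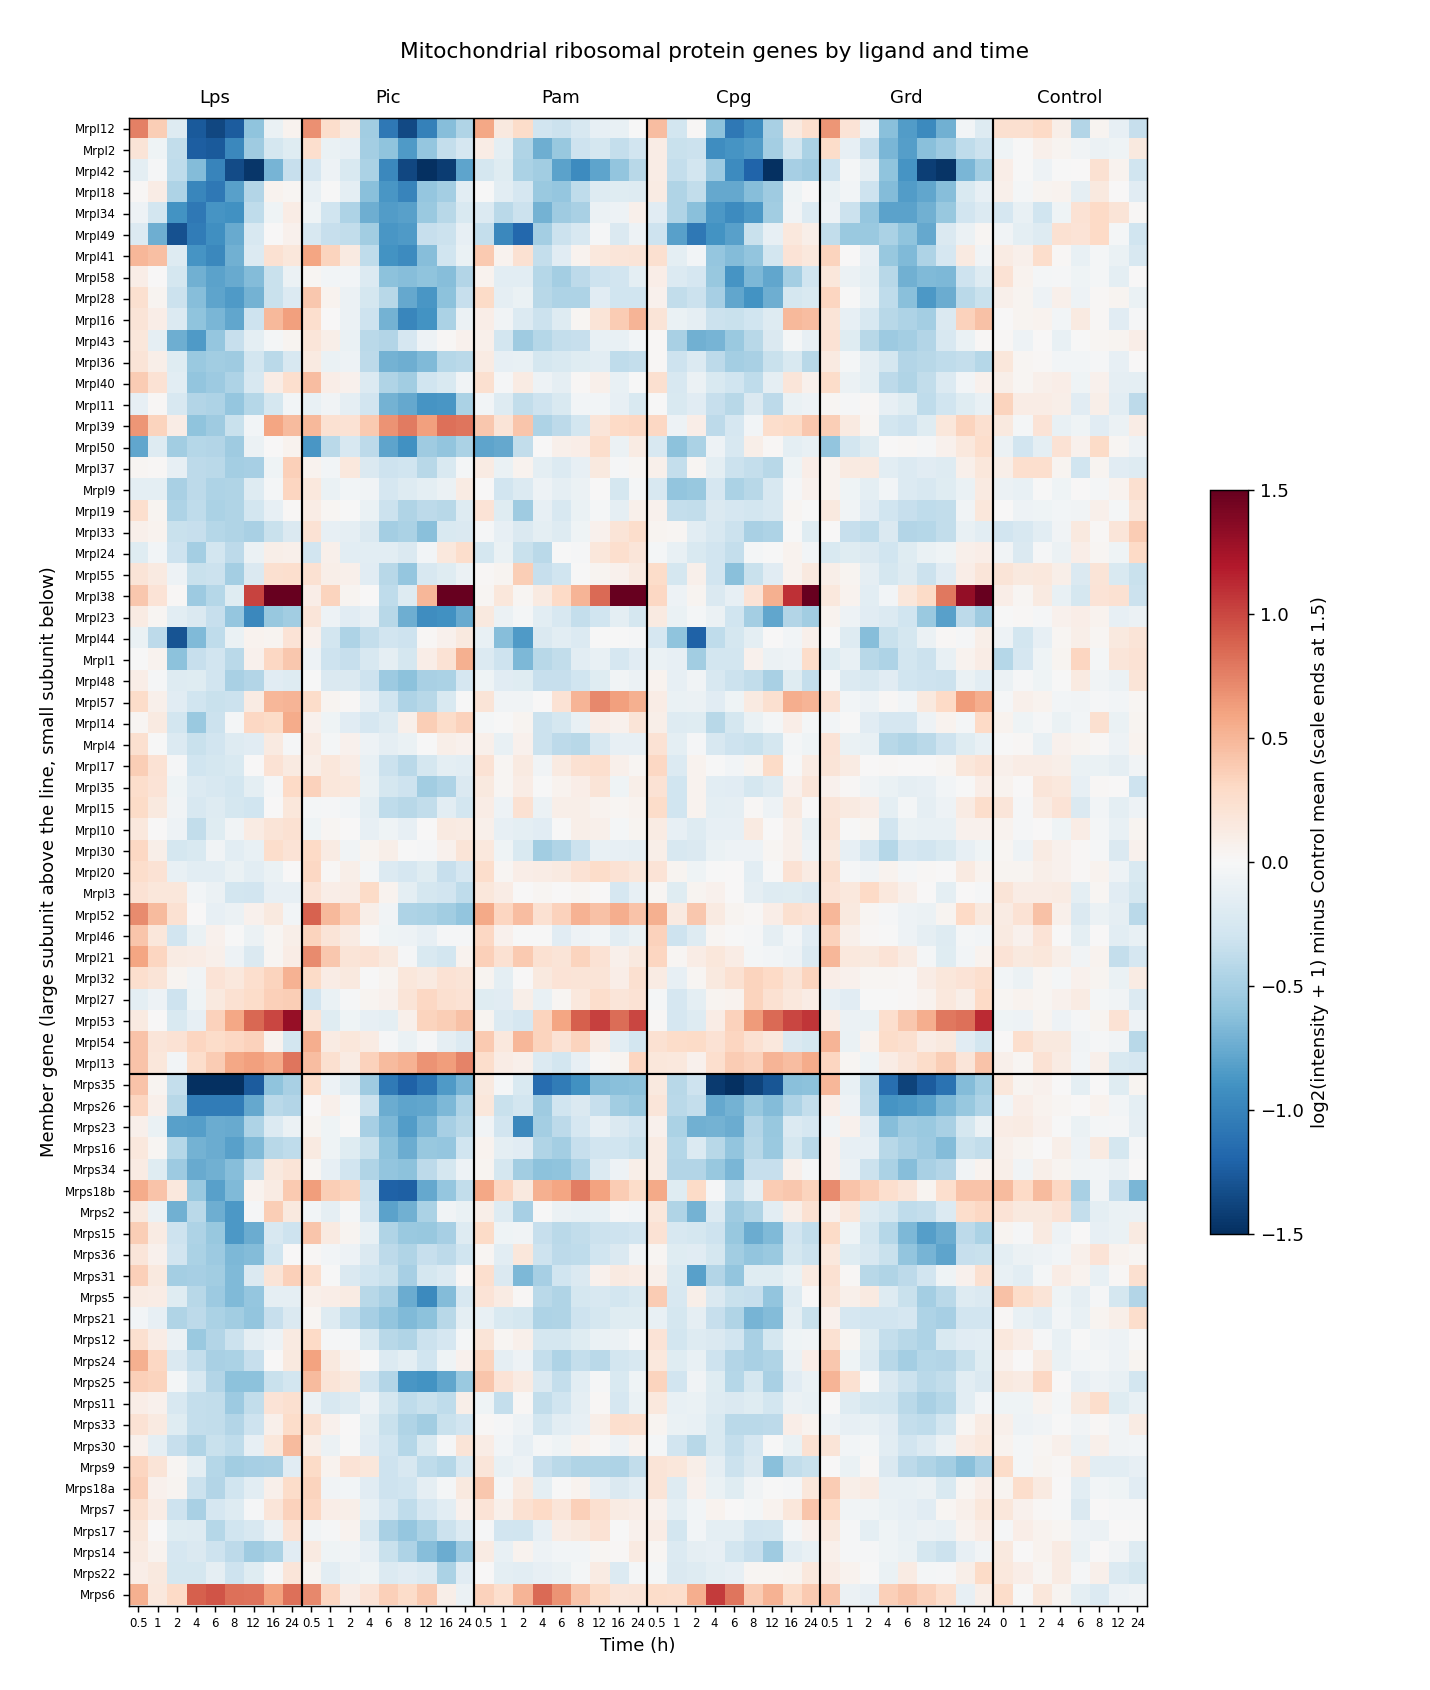
Log2 difference of each of the 70 members from the Control mean (colour, limited to 1.5 on either side of 0) in each ligand and time group and on each Control array, with the 45 Mrpl genes above the line and the 25 Mrps genes below it, sorted within a subunit by the Lps middle-window difference. Blue in the 4, 6 and 8 h columns covers most genes with Lps (61 of 70 lower), and the few red lines include Mrps6 and, at late times, Mrpl38 and Mrpl53.

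The largest middle-window fall among the members was that of Mrps35, a protein of the small subunit found only in mitochondria. Its intensity was 42, 48.4 and 57.9 with Lps (lowest, median and highest of 6 arrays), against 142, 163 and 181 in Control (8 arrays). All Lps arrays lay below all Control arrays. The fold was 0.308, a log2 difference of -1.70 with a standard error of 0.058 (limma, adjusted p = 4.7e-32). The middle-window values were 52.5, 56.5 and 65.6 with Cpg, 56.1, 67 and 77.6 with Grd, 70.4, 76.8 and 92.2 with Pam, and 66.3, 79.2 and 118 with Pic. None of these overlapped Control either, and the log2 differences were -1.46, -1.26, -1.03 and -0.93. The fall was fast: Lps arrays read 212 and 221 at 0.5 h, 136 and 115 at 2 h and 50.2 and 48.4 at 4 h. Return was partial, with 114 and 115 at 24 h of Lps, and Mrps35 was still lower in the late window with every ligand (log2 differences of -0.78 with Lps, -0.88 with Pic, -0.63 with Pam, -0.84 with Cpg and -0.76 with Grd).

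Mrpl12 encodes the mitochondrial homolog of the bacterial L7/L12 stalk, which recruits translation factors to the ribosome, and its human protein has also been reported to bind the mitochondrial RNA polymerase. It read 104, 114 and 124 with Lps in the middle window, against 206, 291 and 343 in Control, with no overlap (fold 0.408, log2 difference -1.29, standard error 0.0788, adjusted p = 3.9e-21). Pic gave 97.7, 132 and 203, Cpg 130, 146 and 182, and Grd 143, 156 and 180, each wholly below Control. With Pam it was 214, 232 and 236, inside the Control range, and the log2 difference was only -0.28 (adjusted p = 0.0015). Against the Control arrays of the same times the Pam difference was -0.18 (adjusted p = 0.079). With Lps, Mrpl12 thus ran from 475 and 465 at 0.5 h through 112 and 104 at 6 h to 279 and 302 at 24 h.

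The other stalk proteins moved less. Mrpl11, whose bacterial homolog lies at the base of the stalk, had middle-window log2 differences of -0.50 with Lps, -0.59 with Pic, -0.33 with Cpg, -0.23 with Grd and -0.19 with Pam. Another probe set of Mrpl11 was at 0.04 with Pam, and leaving out the 0 h Control array gave -0.15 (adjusted p = 0.051), so the Pam value is not firm. Without 8 h the Grd value of Mrpl11 was -0.15 (adjusted p = 0.094). Mrpl10, which anchors the stalk, had the smallest differences of the group, at -0.20 with Lps, -0.10 with Pic and -0.17 with Grd. Once arrays were centred on their medians, Mrpl10 with Lps stood at -0.01 (adjusted p = 0.85) and with Grd at -0.07 (adjusted p = 0.22). Without the replicate 1 array of Grd at 4 h, the Grd value of Mrpl10 was -0.08 (adjusted p = 0.12).

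Among other large subunit proteins, Mrpl2, the homolog of the bacterial L2 protein near the peptidyl transferase centre, read 136, 169 and 191 with Lps in the middle window, against 346, 362 and 408 in Control. All Lps arrays lay below the lowest Control array (log2 difference -1.15, standard error 0.0575, adjusted p = 8.1e-25). Its log2 differences were -0.89 with Cpg, -0.71 with Grd, -0.65 with Pic and -0.54 with Pam. Mrpl34, homolog of the bacterial L34, had log2 differences of -0.95 with Lps, -0.89 with Cpg, -0.79 with Pic, -0.77 with Grd and -0.57 with Pam. Mrpl41, specific to mitochondria, had -0.86 (Lps), -0.74 (Pic), -0.61 (Cpg) and -0.57 (Grd). With Pam it had -0.16 (adjusted p = 0.022), which was -0.06 without 4 h (adjusted p = 0.5), -0.12 against Control arrays of the same times (adjusted p = 0.18) and -0.09 with arrays centred on their medians (adjusted p = 0.22). Mrpl33, homolog of the bacterial L33, had smaller differences of -0.41 (Lps), -0.40 (Pic), -0.35 (Cpg) and -0.37 (Grd), and -0.14 with Pam (adjusted p = 0.085).

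Mrpl42, a large subunit protein specific to mitochondria, had a slower course than most members. It read 355, 470 and 615 with Lps in the middle window, against 759, 936 and 1100 in Control. In the late window it was still 327, 577 and 748 with Lps and 290, 355 and 541 with Pic, all below the lowest Control array. Its late Pic difference of -1.26 (fold 0.418, standard error 0.0486, adjusted p = 2.3e-29) was the one 2-fold late fall among the members (4% of all genes passed that rule with Pic). The lowest Lps and Pic values came at 12 h, with 353 and 327 for Lps and 290 and 349 for Pic. The late log2 differences with the other ligands were -0.60 with Pam, -0.85 with Cpg and -0.89 with Grd.

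In the small subunit, Mrps26, another protein specific to mitochondria, read 56, 58.8 and 61.1 with Lps in the middle window, against 111, 124 and 131 in Control, with no overlap (log2 difference -1.05, standard error 0.056, adjusted p = 1.4e-23). Its other differences were -0.85 with Grd, -0.68 with Cpg, -0.62 with Pic and -0.35 with Pam. Mrps34, also specific to mitochondria, fell by similar amounts with all ligands, with log2 differences of -0.71 with Lps, -0.55 with Pic, -0.56 with Pam, -0.53 with Cpg and -0.53 with Grd. Mrps12, the homolog of the decoding-centre protein S12, had -0.44 with Lps, -0.41 with Grd, -0.33 with Cpg and -0.24 with Pam. Mrps36, now also assigned to the 2-oxoglutarate dehydrogenase complex, had -0.56 with Lps, -0.54 with Grd, -0.46 with Cpg, -0.36 with Pam and -0.35 with Pic. Mrps5, the dimmest member with a mean intensity of 41.0 over all arrays, had values between -0.30 and -0.55, and its level lies close enough to the floor that a log2 difference understates any change. Its Cpg value was -0.16 with arrays centred on their medians (adjusted p = 0.098).

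A few members went the other way. Mrps6, homolog of the bacterial S6 protein, read 380, 423 and 465 with Lps in the middle window, against 196, 221 and 273 in Control. All Lps arrays lay above all Control arrays (fold 1.85, log2 difference 0.89, standard error 0.0664, adjusted p = 1.4e-17). Its other differences were 0.74 (Cpg), 0.65 (Pam), 0.37 (Grd) and 0.28 (Pic). The late Lps arrays stayed at 332, 391 and 411 (log2 difference 0.75), while those of Cpg gave 0.40, of Pam 0.22, of Pic 0.13 (adjusted p = 0.076) and of Grd 0.07 (adjusted p = 0.37). In the RefSeq gene table the Mrps6 locus overlaps Slc5a3, whose own probe sets lay at the floor on all arrays.

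Mrpl13, homolog of the bacterial L13, was higher in the middle window with Pic (0.45), Lps (0.41), Cpg (0.32) and Grd (0.19) and lower with Pam (-0.20, adjusted p = 0.00059). Its late differences were 0.68 (Pic), 0.66 (Lps), 0.51 (Cpg), 0.32 (Grd) and 0.13 (Pam, adjusted p = 0.03). Between the windows Mrpl13 rose by 0.33 with Pam (adjusted p = 1.6e-06), and its late Pam difference was 0.05 with arrays weighted by quality (adjusted p = 0.36), 0.06 with the mean of its probe sets (adjusted p = 0.39) and 0.03 without 24 h (adjusted p = 0.73). The late Mrpl13 arrays of Pic read 967, 1040 and 1090, against 543, 671 and 754 in Control, with no overlap. Mrpl54, another mitochondria-specific protein, had small rises in the middle window with Lps (0.30), Pam (0.30), Cpg (0.26) and Grd (0.21) and none with Pic (0.00). With arrays weighted by quality the Grd value of Mrpl54 was 0.11 (adjusted p = 0.12).

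**Figure D3:**
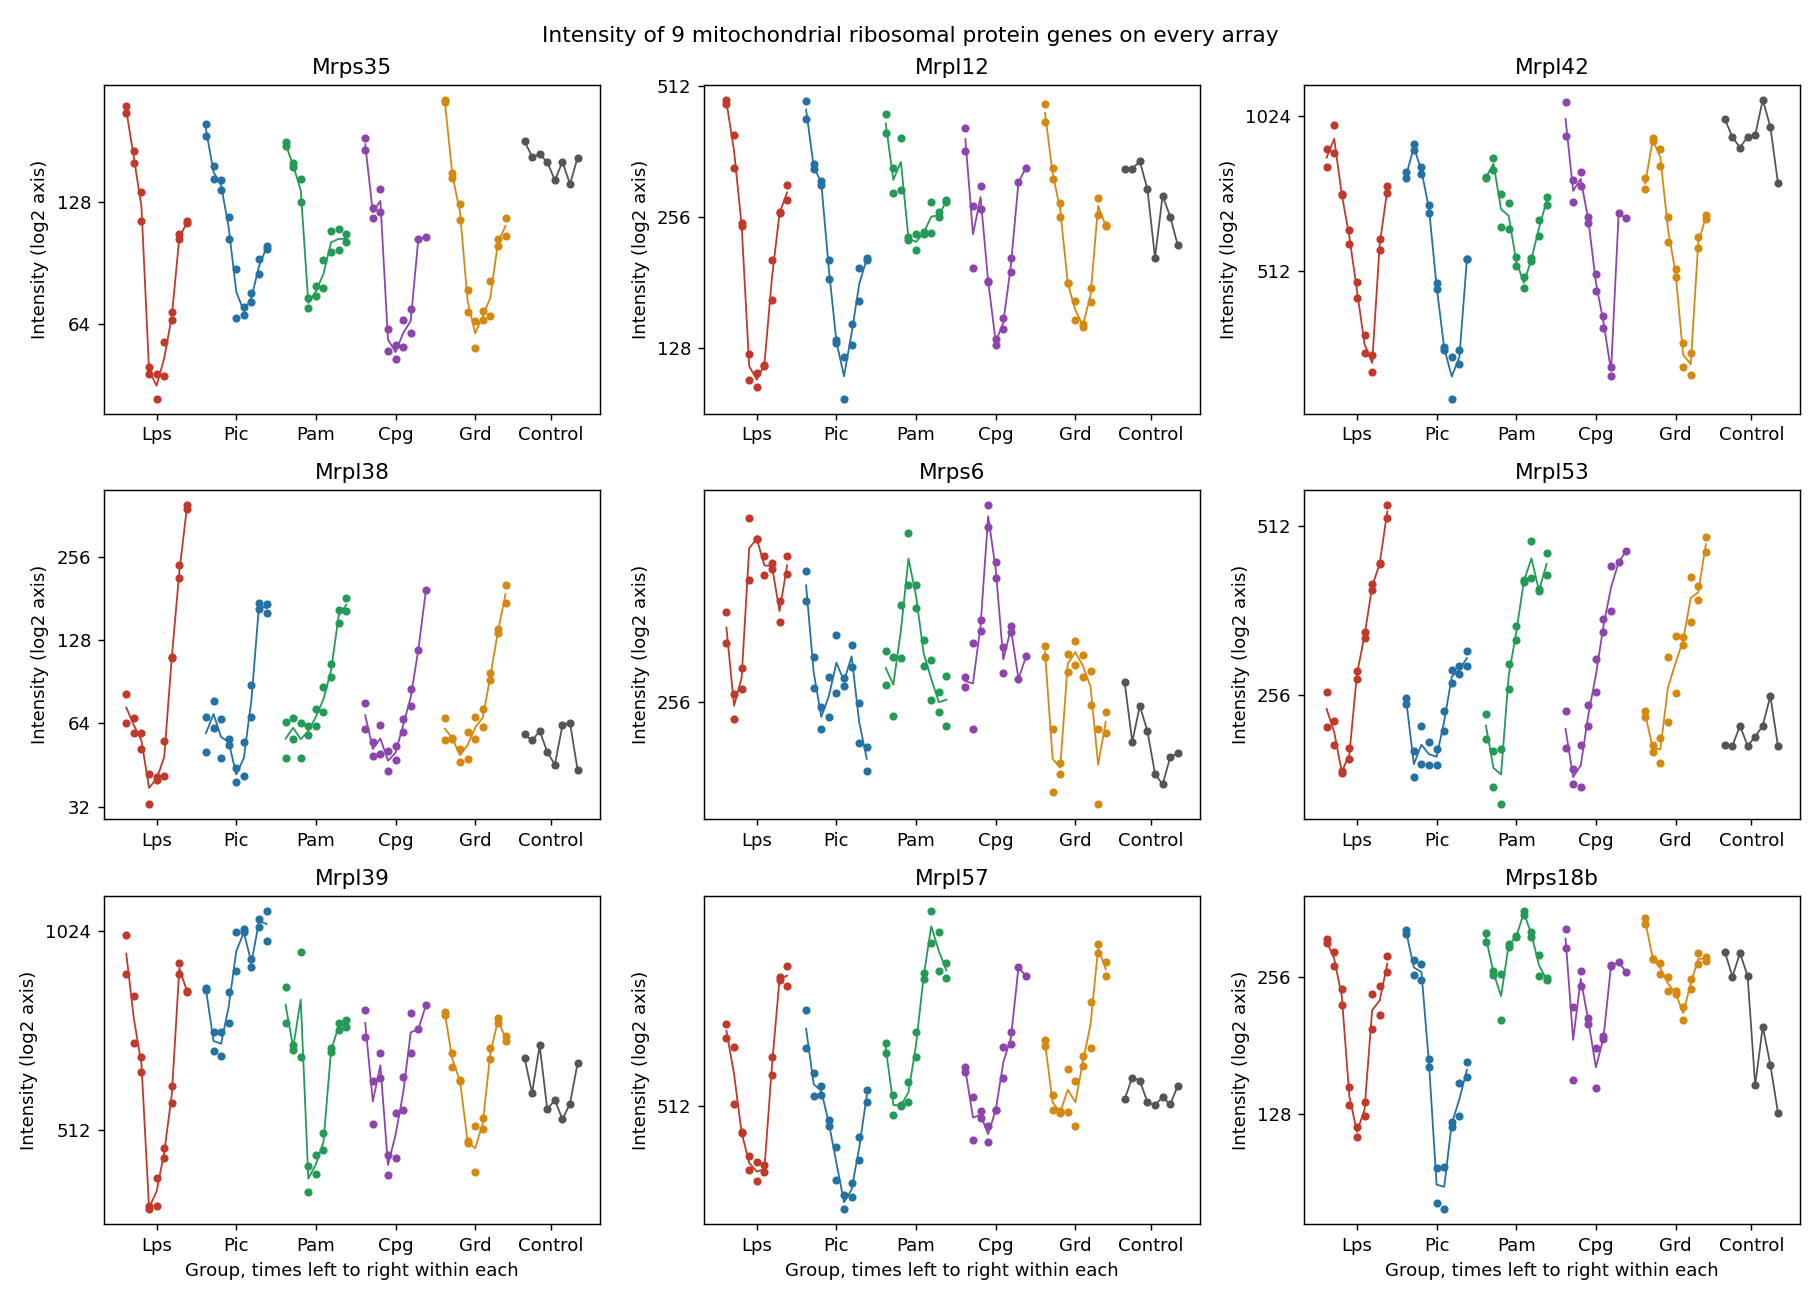
Intensity (log2 axis) of 9 members against hours, with ligands on the left and Control on the right of each panel; each point is an array and each line joins the group means. Mrps35 and Mrpl12 dip between 4 and 8 h with Lps, Mrps6 lies above Control, Mrpl38 climbs to 394 at 24 h of Lps, and Mrpl39 lies above Control between 4 and 8 h with Pic.

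The 250 bases before the annotated start of transcription were read for 62 of the 70 members from the RefSeq promoter table of mouse build GRCm38.p6, giving 68 windows. The letters GCGCA, then any base, then GCGC, a core of the site bound by the nuclear respiratory factor NRF1, were found on either strand in 9 of these windows (13.2%), against 3.74% of 32851 windows of all genes. CCGGAAG, a core bound by ETS factors, was in 14 windows (20.6%, against 6.91% of all), and the E-box CACGTG in 6 (8.82%, against 6.02% of all). The 6 E-box windows belonged to only 4 members, so that share counts some genes more than once. These matches are descriptions of the letters and not of binding. The 9 members with the NRF1 letters had a median Lps middle-window log2 difference of -0.38, and the 53 without them -0.43. The difference was not tested. For the ETS letters the medians were -0.34 in 14 members with them and -0.43 in 48 without, and for the E-box -0.49 in 4 and -0.42 in 58. 4 of the windows are shown because these members stand for the main courses: Mrpl12 (chr11:120484387-120484636, plus strand) and Mrpl42 (chr10:95501950-95502199, minus strand) fell with Lps, Mrps6 (chr16:92058086-92058335, plus strand) rose with all 5 ligands, and Mrpl39 (chr16:84735245-84735494, minus strand) rose with Pic only in the middle window. Each is written 5′ to 3′ on the strand of the gene, and capitals mark the NRF1 letters, which in Mrpl12 are read on the other strand; no match of the 3 motifs was found in Mrpl42 and Mrps6.
Mrpl12: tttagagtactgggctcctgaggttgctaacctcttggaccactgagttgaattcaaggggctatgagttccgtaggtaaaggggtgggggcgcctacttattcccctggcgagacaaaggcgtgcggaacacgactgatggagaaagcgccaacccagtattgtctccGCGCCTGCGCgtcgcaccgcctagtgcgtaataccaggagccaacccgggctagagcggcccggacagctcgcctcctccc
Mrpl42: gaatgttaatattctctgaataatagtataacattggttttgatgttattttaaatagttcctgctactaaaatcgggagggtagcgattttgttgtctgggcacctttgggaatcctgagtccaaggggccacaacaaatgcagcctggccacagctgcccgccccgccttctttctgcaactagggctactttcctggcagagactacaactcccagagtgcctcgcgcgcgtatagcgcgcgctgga
Mrps6: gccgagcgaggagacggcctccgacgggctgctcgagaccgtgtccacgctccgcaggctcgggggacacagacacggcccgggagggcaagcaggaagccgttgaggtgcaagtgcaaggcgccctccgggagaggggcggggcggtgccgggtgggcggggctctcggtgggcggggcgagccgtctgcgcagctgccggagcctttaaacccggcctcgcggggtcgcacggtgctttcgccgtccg
Mrpl39: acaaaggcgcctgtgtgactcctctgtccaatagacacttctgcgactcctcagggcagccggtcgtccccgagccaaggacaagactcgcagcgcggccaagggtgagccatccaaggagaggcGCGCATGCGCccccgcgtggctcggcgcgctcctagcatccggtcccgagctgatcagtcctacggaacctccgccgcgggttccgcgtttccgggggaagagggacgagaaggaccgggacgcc

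Late in the course, most members had come back up with Lps. Between the middle and the late window 56 of 70 members rose and 2 fell with Lps, with a median log2 change of 0.38, against 38.5% of all genes rising and 24.4% falling. The changes with the other ligands were smaller, with 43 rising and 5 falling for Grd (29.8% and 19% of all genes), 38 and 5 for Cpg (31.5% and 19.1%), 36 and 4 for Pam (25.8% and 19.3%) and 30 and 10 for Pic (28% and 20.6%). Their medians were 0.19, 0.18, 0.15 and 0.11. With arrays centred on their medians the Cpg median was 0.07 and the Lps median 0.22. No Control array enters these changes. Mrpl12 rose by 1.08 with Lps (standard error 0.0843, adjusted p = 1.7e-16), Mrpl16 by 0.95, Mrpl41 by 0.92 and Mrps35 by 0.92. Mrpl23, homolog of the bacterial L23 at the exit of the nascent chain, was among the members that instead fell further, by 0.30 with Lps and by 0.44 with Pic.

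Over all late arrays, 23 members were lower and 17 higher with Lps than in Control (35.3% and 27.5% of all genes), with a median of -0.02. Pam had 23 lower and 18 higher (31.7% and 23.6%), Cpg 26 and 12 (31.4% and 22.7%) and Grd 30 and 10 (32.4% and 25.5%), with medians of -0.05, -0.08 and -0.06. Pic stood apart in its counts, with 47 lower and 9 higher (38.5% and 26.9% of all genes) and a median of -0.27. Against only the 12 and 24 h Control arrays, 30 members were lower with Pic and the median was -0.19. Against those arrays the medians were 0.10 with Pam, 0.02 with Lps, -0.02 with Cpg and -0.02 with Grd, so the sign with Pam and Lps turned with the choice of Control. With a linear trend through Control the medians were 0.04 with Pam and 0.01 with Lps, and the members higher with Grd numbered 19. Without 12 h the late medians were 0.06 with Lps, 0.01 with Cpg and 0.00 with Grd. Small subunit genes had 21 of 25 lower and 0 higher with Pic late (median -0.35), and large subunit genes 26 of 45 lower and 9 higher (median -0.23).

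Related families of the same cells had other counts in the late window. Cytosolic ribosomal protein genes (67 measured) had 63 lower in the middle window with Lps (median -0.23) and 61 lower in the late window (median -0.33). Between the windows, 42 of them fell and 3 rose with Lps. Nuclear genes of the respiratory chain and ATP synthase (74 measured) had 66 lower in the middle window with Lps (median -0.33) and 63 in the late window (median -0.39), with 33 falling and 17 rising between the windows. Of all genes, 47.8% were lower in the middle and 35.3% in the late window with Lps, and 24.4% fell and 38.5% rose between them. At 24 h of Lps the medians were 0.12 for the mitochondrial ribosomal proteins, -0.31 for the cytosolic ones and -0.29 for the respiratory chain. With Pic all 3 families were still low in the late window, at -0.27, -0.27 and -0.47. These medians are given side by side, and the difference between the families was not tested.

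**Figure D4:**
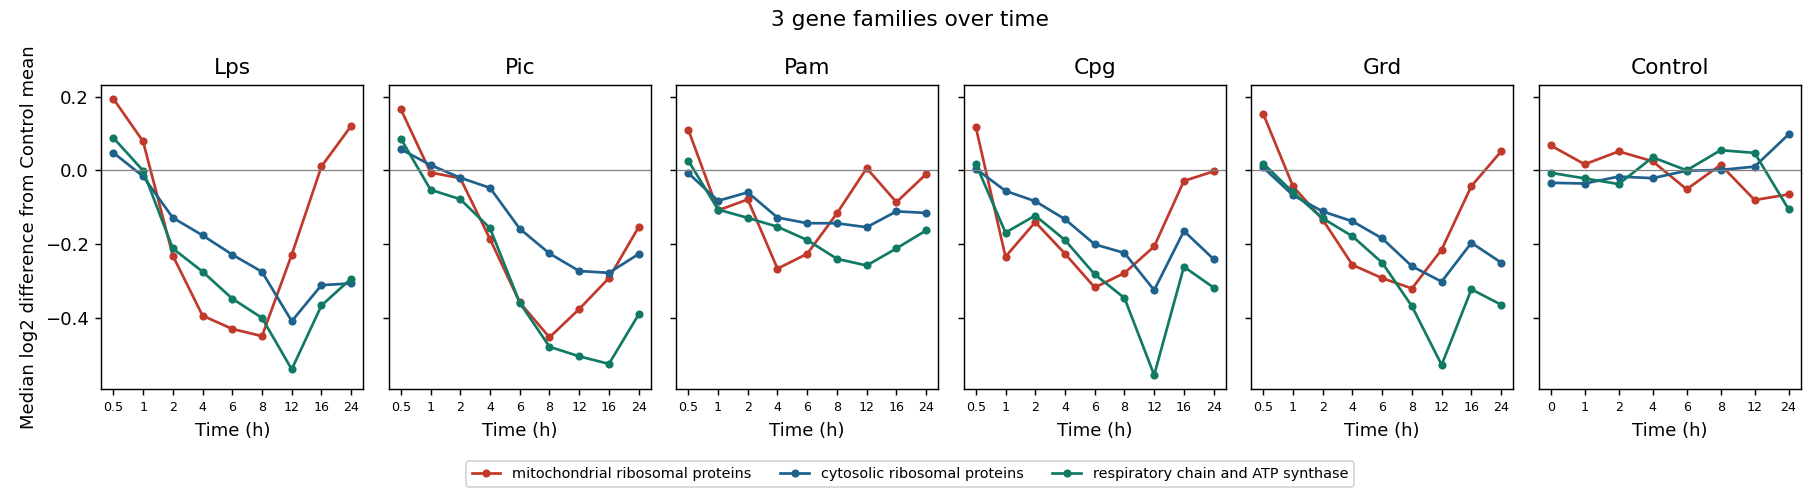
Median log2 difference from the Control mean against hours for the mitochondrial ribosomal proteins (70 genes), the cytosolic ribosomal proteins (67 genes) and the respiratory chain and ATP synthase subunits (74 genes), with 1 panel per ligand and 1 for Control. At 24 h of Lps the first line is at 0.12 and the other lines are at -0.31 and -0.29.

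Mrpl38, a large subunit protein specific to mitochondria, had the largest late rise. It read 110, 227 and 394 with Lps in the late window, against 43.4, 57 and 64.3 in Control. All late Lps arrays lay above all Control arrays (fold 3.87, log2 difference 1.95, standard error 0.0976, adjusted p = 1.7e-24). The increase went on to the last time, with 110 and 111 at 12 h, 215 and 240 at 16 h and 382 and 394 at 24 h of Lps. The other ligands gave 94.5, 156 and 182 with Pam, 91.9, 138 and 202 with Grd, 67.6, 164 and 175 with Pic, and 85.2, 74, 118 and 194 on the 4 Cpg arrays. These too lay above every Control array, with log2 differences of 1.33, 1.29, 1.24 and 1.15. In the middle window Mrpl38 had instead been lower with Lps (-0.39, adjusted p = 0.0004), and with arrays centred on their medians that value was -0.19 (adjusted p = 0.063). Its probe set is of a type that can match transcripts of more than 1 gene, and its neighbour Trim65, 404 bases away in the RefSeq table, is not named on the array.

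Mrpl53, also specific to mitochondria, read 394, 439 and 557 with Lps in the late window, against 208, 212 and 255 in Control, again with no overlap (fold 2.08, log2 difference 1.06, standard error 0.0595, adjusted p = 2.5e-22). The late log2 differences were 0.98 (Cpg), 0.96 (Pam), 0.91 (Grd) and 0.38 (Pic). Mrpl53 and Mrpl38 were the 2 members past a 2-fold late rise with Lps (4.7% of all genes), and Mrpl38 alone was with Pic, Pam, Cpg and Grd (4.53%, 3.42%, 3.86% and 3.84%). The Mrpl53 locus overlaps Ccdc142, which is not named on the array. Mrpl27, homolog of the bacterial L27 and the brightest member with a mean intensity of 1170, had late differences of 0.33 with Lps, 0.26 with Pic, 0.22 with Pam, 0.18 with Grd and 0.17 with Cpg. Without 24 h the Grd value of Mrpl27 was 0.12 (adjusted p = 0.057), and without 12 h the Cpg value was 0.13 (adjusted p = 0.13).

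The 5 ligands were then compared with each other, without Control. Members whose level differed among the ligands by a moderated F test with adjusted p under 0.05 numbered 39 in the early, 64 in the middle and 62 in the late window, against 49.3%, 76.5% and 70.6% of all genes. In the middle window 52 members were lower and 4 higher with Lps than with Pam (39.7% and 19.6% of all genes), with a median log2 difference of -0.26. Lps was also below Grd for 37 members and above it for 4 (30.8% and 17.5%), and below Cpg for 26 and above it for 0 (17% and 11.5%). Between Lps and Pic the split was 25 lower and 6 higher with Lps (29.2% and 19.6%). With arrays centred on their medians it was 13 and 13, and Lps was then below Pam for 35 and above it for 7 and below Grd for 17 and above it for 7. Pic was below Pam for 40 members and above it for 6 (35.7% and 23.2%), below Cpg for 21 and above it for 11 (22.8% and 26.4%), and below Grd for 20 and above it for 12 (27.4% and 24.1%). Pam was above Cpg for 33 members and below it for 3 (32.4% and 16.1%), and above Grd for 34 and below it for 1 (19.2% and 12.1%). Centred, Pam was above Cpg for 26 and below it for 8, and above Grd for 22 and below it for 1. For the centred counts of ligand pairs no shares of all genes are given. Of the 10 pairs of ligands, Cpg and Grd had the fewest members called, with 5 members lower and 7 higher in Cpg (16% and 10.9%). Late in the course 43 members were higher and 1 lower with Lps than with Pic (26.6% and 23.8% of all genes), with a median of 0.19, and 44 were lower and 8 higher with Pic than with Pam (34.6% and 27%). Pic was also below Cpg for 31 and above it for 6 (27.3% and 23.6%), and below Grd for 33 and above it for 10 (32.3% and 27.1%). The late split of Lps was 16 lower and 14 higher against Pam (24.3% and 18.4%), 1 and 5 against Cpg (7.7% and 7.89%) and 3 and 17 against Grd (18.3% and 15.1%). Pam was above Cpg for 17 and below it for 3 (13.2% and 9.97%), and above Grd for 18 and below it for 1 (11.3% and 9.72%). Between Cpg and Grd late, 1 member passed, Mrps6, which was higher with Cpg by 0.33 (adjusted p = 0.0067), while 2.64% of all genes were higher and 2.85% lower.

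Mrpl39, a large subunit protein specific to mitochondria, differed most among the ligands in the middle window. It read 745, 955 and 1030 with Pic, against 532, 576 and 688 in Control, with no overlap (fold 1.53, log2 difference 0.62, standard error 0.0567, adjusted p = 4.5e-14). With the other 4 ligands it was lower than in Control, at 389, 414 and 482 with Lps, 413, 462 and 507 with Pam, 439, 507 and 616 with Cpg and 443, 504 and 535 with Grd. The Cpg difference was -0.23, and -0.08 with arrays centred on their medians (adjusted p = 0.22). Against the Control arrays of the same times, Mrpl39 had -0.11 with Cpg (adjusted p = 0.16) and -0.14 with Grd (adjusted p = 0.071). The Lps and Pic arrays of Mrpl39 did not overlap, and Lps minus Pic was -1.11 (adjusted p = 3e-22). Pic minus Pam was 0.99, Pic minus Grd 0.88 and Pic minus Cpg 0.84. Late Mrpl39 was higher than Control with every ligand, by 0.75 with Pic and by 0.25 to 0.34 with the others, and against the Control arrays of 12 and 24 h the Grd value was 0.19 (adjusted p = 0.066). A second probe set of Mrpl39 gave 0.53 with Pic and -0.48 with Lps in the middle window. Its neighbour Mir155hg, 3036 bases away in the RefSeq table, is not named on the array.

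Mrps18b, 1 of several mitochondrial homologs of the bacterial S18 protein, split the ligands in another way. In the middle window it read 297, 313 and 357 with Pam, against 129, 228 and 290 in Control (fold 1.55, log2 difference 0.63, standard error 0.105, adjusted p = 8.2e-07). Pic gave 79.2, 97.8 and 169 (log2 difference -0.92) and Lps 114, 131 and 147 (-0.68). Pam arrays lay above the Control range, and Pic and Lps arrays overlapped its lower end. Cpg (-0.17, adjusted p = 0.15) and Grd (0.16, adjusted p = 0.19) did not pass. Pic minus Pam was -1.55 (adjusted p = 1e-17) and Lps minus Pam -1.31 (adjusted p = 6.7e-15). Control itself was not level for Mrps18b, with 290 at 0 h, 199 at 8 h and 129 at 24 h. Against the Control arrays of the same times the middle-window differences were 0.71 with Pam, -0.60 with Lps and -0.84 with Pic.

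Among late arrays Mrpl57, a small mitochondria-specific protein of the large subunit, had the largest differences among ligands. It read 751, 812 and 920 with Pam and 390, 452 and 538 with Pic, against 514, 525 and 558 in Control. Pam lay wholly above Control (log2 difference 0.62), and Pic had its higher arrays inside the Control range (-0.22). Late Mrpl57 was also higher with Grd (0.49), Cpg (0.43) and Lps (0.38), and Pic minus Pam was -0.84 (adjusted p = 1.2e-25). The Mrpl57 locus overlaps Ska3, which is not named on the array. Mrps14, homolog of the bacterial S14, read 590, 658 and 704 with Pic late, against 891, 1020 and 1130 in Control (log2 difference -0.64), and was at 0.06 with Pam (adjusted p = 0.25). Mrpl16, homolog of the bacterial L16, was lower with Pic late (-0.49) and higher with Pam (0.36), Lps (0.26), Cpg (0.25) and Grd (0.19). Without 24 h the Mrpl16 values were 0.09 with Lps (adjusted p = 0.25), 0.15 with Cpg (adjusted p = 0.11) and 0.06 with Grd (adjusted p = 0.47). Without 16 h they were 0.14 with Cpg (adjusted p = 0.13), which had 1 array then, and 0.11 with Grd (adjusted p = 0.15), and without the replicate 1 array of 12 h the Grd value was 0.14 (adjusted p = 0.06). Mrpl23 read 242, 258 and 295 with Pic late, against 439, 480 and 511 in Control (log2 difference -0.86, adjusted p = 1.7e-25), and its late differences were -0.69 (Lps), -0.58 (Cpg), -0.58 (Grd) and -0.24 (Pam).

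Early values of the family differed between the times pooled and with the choice of Control arrays. With Lps, 59 of 70 members lay below the Control mean at 2 h (median -0.23), and 11 did at 0.5 h (median 0.19). At 1 h of Cpg 62 did, also with a median of -0.23. The median of all genes was -0.08 at 2 h and 0 at 0.5 h of Lps, and -0.06 at 1 h of Cpg. The share of all genes below the Control mean at these times is not given. In the early window 16 members were lower and 18 higher with Lps (33.6% and 18.4% of all genes), 11 and 23 with Pic (27.2% and 17.7%), 22 and 14 with Pam (35.4% and 18.5%), 28 and 4 with Cpg (32.2% and 14.5%) and 12 and 9 with Grd (22.5% and 15.1%). With Lps the members higher numbered 34 without 2 h and 7 without 0.5 h. Against only the 1 and 2 h Control arrays, the members higher numbered 0 with Lps, 0 with Pic, 2 with Pam, 1 with Cpg and 0 with Grd. The ligand arrays of 0.5 h have no Control array of that time. Their medians ran between 0.11 with Pam and 0.19 with Lps, against 0.07 on the 0 h and 0.02 on the 1 h Control array.

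A few large subunit members had an early fall of their own, and they are named here after their values were seen. Mrpl49, specific to mitochondria, read 52.6, 91.7 and 134 with Lps early, against 124, 148 and 187 in Control (log2 difference -0.75, adjusted p = 3.6e-13), with some overlap. At 2 h its 2 Lps arrays read 52.6 and 70.8 and its 2 Pam arrays 70.4 and 63.2, against 134 on the 2 h Control array. Early Mrpl49 was also lower with Pam (-0.84), Cpg (-0.73), Grd (-0.50) and Pic (-0.32). Mrpl44, which has a fold like that of the RNase III enzymes, read 231 and 215 at 2 h of Lps and 208 and 266 at 2 h of Cpg, against 500 on the 2 h Control array. Mrpl44 with Lps was back at 581 and 549 at 12 h, where Control read 606. Its early differences were -0.69 with Cpg, -0.59 with Lps, -0.53 with Pam, -0.28 with Grd and -0.22 with Pic. Mrpl50 had early differences between -0.35 and -0.65. Mrpl52 was instead higher than the Control mean early, by 0.23 with Grd to 0.58 with Pic, but Control read 1350 at 2 h and 754 at 24 h, and at 2 h Pic read 1330 and 1230.

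At the adjusted threshold, members changed over the day in Control about as often as all genes. Over the 8 Control arrays 7 members fell and 3 rose with log2 of hours (7.06% and 5.25% of all genes), and the median slope was -0.03 per doubling of hours plus 1, a change of -0.15 between 0 and 24 h. That change is larger in size than the late medians of Lps, Pam, Cpg and Grd. At an unadjusted p under 0.05 the counts were 26 and 8 (19.1% and 16.7% of all genes). Leaving out 1 array at a time gave 0 to 6 falling and 0 to 2 rising members, with 0 and 0 without the array of 1, 12 or 24 h. Mrps18b had the steepest slope, a change of -1.23 from 0 to 24 h (adjusted p = 0.04), followed by Mrps5 at -0.87 (adjusted p = 0.029). Mrpl33 changed by 0.69 (adjusted p = 0.036) and Mrpl1 by 0.66 (adjusted p = 0.044).

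Most members followed the median course of the other members. Over the 45 ligand and time groups, 53 of 70 members had a Pearson correlation above 0.5 with the median of the other members, and the median was 0.75. Mrpl40 (0.95), Mrpl41 (0.93) and Mrpl12 (0.93) were the closest. Mrps6 (-0.26), Mrpl27 (-0.22), Mrpl13 (-0.05) and Mrpl54 (-0.04) were the 4 below 0. These groups share plate and normalization, and the correlations are given as a description. The same correlation was not computed for all genes, so the count of 53 has no background beside it. The median of all genes also dipped, to -0.13 at 4 h of Lps. Whether the course belongs to the family alone was not tested.

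Where a gene had a further measured probe set, it mostly gave the same direction. For 24 genes there were 28 such probe sets, and of 201 calls in the middle and late windows 194 had the same and 7 the opposite direction. The 7 involved Mrpl1, Mrpl3, Mrpl11, Mrpl21, Mrpl44 and Mrps5. Of these, 2 were called themselves: a dim probe set of Mrpl1 (mean intensity 30.7) was lower in the late window with Lps (-0.36) and with Pic (-0.35), against a rise of the brighter one. Against the Control arrays of 12 and 24 h the brighter one was at 0.04 with Lps (adjusted p = 0.82) and 0.11 with Pic (adjusted p = 0.32).

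Other genes of mitochondrial translation went along in part. Of 6 listed other symbols of ribosome proteins 4 were measured, Dap3, Chchd1, Gadd45gip1 and Ptcd3. All 4 were lower with Lps in the middle window (median -0.52). The listed symbol Ict1 is an older name of the member Mrpl58 and was not counted as measured here. Gadd45gip1 had -0.65 and Dap3 -0.39 with Lps, and Ptcd3 -0.79 with Pic. The largest late differences were those with Pic, of -0.46 for Gadd45gip1, -0.45 for Chchd1 and -0.43 for Ptcd3. Of 16 listed translation factors 8 were measured, of which 7 were lower and 0 higher with Lps, 6 and 0 with Pic, 6 and 1 with Cpg, 5 and 1 with Grd and 2 and 3 with Pam in the middle window. The shares of all genes lower and higher were 47.8% and 26.2% with Lps, 46.3% and 23.1% with Pic, 44.8% and 24.9% with Cpg, 40.7% and 23.6% with Grd, and 37.7% and 25.1% with Pam. The Pam count of lower factors lay below that share. Lrpprc, which stabilises mitochondrial messenger RNA, read 48.8, 59.5 and 96.3 with Lps in the middle window, against 96.9, 138 and 203 in Control, a log2 difference of -1.11 (standard error 0.0937, adjusted p = 1e-15). Every Lps array lay below every Control array. Mtif2, an initiation factor, had -0.63 with Lps, and Tufm, the elongation factor Tu of mitochondria, -0.64 with Pic. In the late window Mrrf was higher with Pam (0.50), while Lrpprc (-1.05) and Tufm (-0.50) were lower with Pic. Of 17 listed mitochondrial aminoacyl-tRNA synthetases 8 were measured, and 5 were lower with Lps, 5 with Pic, 5 with Cpg, 4 with Grd and 3 with Pam in the middle window, with 0 higher. Against the same shares of all genes, the Pam and Grd counts of lower synthetases were near the background. Those with Lps, Pic and Cpg lay only a little above it. Hars2 had -0.80, Ears2 -0.72 and Rars2 -0.64 with Lps. In the late window Tars2 was higher with Pam (0.31), while Rars2 (-0.47) and Iars2 (-0.31) were lower with Pic.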

How the data were processed

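Per the labels, biotin-labelled total RNA of bone marrow dendritic cells was measured on Affymetrix mouse arrays of 1 colour. The authors deposited linear intensities of 18858 probe sets on 96 arrays. RMA, which handles background, normalization between arrays and the summary of probes, is named per the submitters' processing notes with no version. How its values became linear intensities floored at 20 is not stated. Between 33.1% and 34.6% of probe sets lay at the floor on each array, and the median intensity per array was 48.75 to 59.5. The number of arrays limits the precision.

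From the deposited intensities, log2(value + 1) was computed with no further normalization, which understates changes of dim genes. Names came from the platform annotation (15044 with 1 symbol, 257 with several, 3557 with none), and 15024 were matched in the RefSeq gene table with 0 symbols changed. Probe sets never above the floor (4409) were dropped, and the brightest probe set of each gene was kept, which gave 10543 items, 7741 of them named genes. The 70 members came from 109 probe sets, 98 of them measured. One model in limma 3.58.1 (R 4.3.3) fitted a mean for Control and for each of 45 groups of ligand and time, with empirical Bayes moderation and 50 residual degrees of freedom. Adjusted p-values are two-sided and Benjamini-Hochberg adjusted over all items within a comparison, with a threshold of 0.05. The Control trend was fitted on log2(hours + 1) over the Control arrays alone. The scripts were tested on simulated data.

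The members and lists were chosen with earlier results of these data known. Named members are the 3 largest rises and falls of each ligand in the middle and late windows whose arrays all lay on 1 side of the Control mean, the 4 largest F values in each of these windows, the 3 largest Control trends each way, a panel (Mrpl12, Mrpl10, Mrpl11, Mrpl33, Mrpl41, Mrps6, Mrps12, Mrps18b, Mrps34 and Mrps36), the brightest and the dimmest member, and members with a disagreeing probe set. From each other list the 3 members with the largest differences in size in the middle and in the late window are named. Alternatives covered the pseudocount, the filter, centring, probe sets, array weights, the Control arrays used, single times and arrays, the replicate block and, for Cpg, the plate column.

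Replicate numbers did not pair the arrays: over 903 pairs of groups, deviations of same-numbered arrays correlated between -0.33 and 0.35, with a median of 0.01.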

Additional observations from a re-analysis of the deposited data

Results flagged for a closer look

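On the Control arrays, which were tested for single outlying values with Dixon's 95% criterion in 31 sets of values, 2 sets passed, where chance gives about 1 in 20. Mrpl53 read 255 on the 12 h Control array, against 208 to 226 on the others (ratio 0.591). Mrpl54 read 85.5 on the 24 h Control array, against 110 to 137 on the others (ratio 0.534).

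The members with the largest differences among the 5 ligands, by the moderated F statistic of limma, are listed with adjusted p-values over all genes. In the middle window these were Mrpl39 (F = 105, adjusted p = 7e-23), Mrpl57 (F = 71.7, adjusted p = 2.3e-19), Mrps18b (F = 61.5, adjusted p = 5.1e-18) and Mrps35 (F = 50.2, adjusted p = 2.8e-16). In the late window they were Mrpl57 (F = 134, adjusted p = 4.1e-25), Mrps14 (F = 66.4, adjusted p = 1.3e-18), Mrpl16 (F = 57.9, adjusted p = 2e-17) and Mrpl23 (F = 54.9, adjusted p = 5.8e-17). Plate position cannot be told apart from ligand in these comparisons.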

How the results depend on the processing

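Of 13299 recomputed values, 12213 kept their direction, their side of the threshold and about their size, 876 moved, 187 kept their direction and no longer passed, and 23 turned direction. A pseudocount of 16 and a stricter filter on dim genes moved no count or median of the members. Except where fewer arrays or times enter by construction, the cause of a change was not tested. Counts of members under the alternatives are given without the shares of all genes.

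With arrays centred on their medians, the members' median was 0.085 for Lps early (8 lower), -0.23 for Lps middle (8 higher), 0.089 for Pic early (7 lower), -0.21 for Pic middle (8 higher), -0.19 for Pic late (14 higher), 0.060 for Pam early (12 lower, 27 higher), -0.12 for Pam middle, -0.019 for Cpg early (9 higher), -0.14 for Cpg middle (14 higher) and -0.21 for Grd middle (13 higher), and Mrpl3 turned to 0.057 for Lps middle. Late minus middle, it was 0.22 for Lps (7 falling), 0.088 for Pam (8 falling), 0.069 for Cpg (9 falling) and 0.11 for Grd. With the mean of all probe sets of a gene, the median for Grd middle was -0.24, and Mrpl1 turned to -0.052 for Lps late and -0.034 for Pic late. With array weights, 11 members were higher for Lps early, 13 lower and 5 higher for Pam early and 2 higher for Cpg early, the medians were -0.31 for Pic late and -0.11 for Grd late, and between middle and late 4 members fell with Lps and 7 with Pam.

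Against Control arrays of the same times, the early medians were -0.11 for Lps (0 higher), -0.054 for Pic (0 lower, 0 higher), -0.12 for Pam (2 higher), -0.24 for Cpg (1 higher) and -0.12 for Grd (6 lower, 0 higher). These fits use 2 Control arrays, and the late medians were -0.19 for Pic (30 lower), 0.10 for Pam and -0.021 for Cpg. Mrpl11 turned to 0.037 for Lps late, 0.040 for Cpg late and 0.071 for Grd late, and Mrpl33 to -0.12 for Pam late. Late Mrpl3 turned to 0.0056 (Lps), 0.15 (Pam) and 0.0047 (Cpg), and late Mrps5 to 0.11 (Pam), 0.055 (Cpg) and 0.038 (Grd). With a linear trend through Control, the higher members numbered 7 for Lps early, 10 for Pic early, 6 for Pic middle, 4 for Pam early, 2 for Cpg early, 0 for Grd early (7 lower), 7 for Grd middle and 19 for Grd late, and the medians were -0.20 for Pic late and 0.035 for Pam late. Under that trend Mrpl12 turned to 0.033 for Lps late, Mrpl33 to -0.085 for Pam late, and Mrpl11 to 0.044 for Cpg late and 0.036 for Grd late. Late Mrps5 turned to 0.047 (Lps), 0.078 (Pam), 0.066 (Cpg) and 0.057 (Grd), and Mrpl3 to 0.046 (Pam).

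Without 0.5 h, the early medians were -0.085 for Lps (7 higher), -0.018 for Pic (8 higher), -0.090 for Pam (7 higher), -0.17 for Cpg and -0.085 for Grd (25 lower, 2 higher). Without 1 h, Cpg early had a median of -0.029 with 13 lower and 8 higher. Without 2 h, Lps early had 0.14 with 5 lower and 34 higher, Grd early 0.064 with 6 lower and 15 higher, and the lower members numbered 5 for Pic, 12 for Pam and 13 for Cpg. The Pic middle median was -0.39 without 4 h and -0.27 without 8 h (5 higher), and the Pam middle median -0.24 without 8 h. Without 12 h, the late values were 0.065 for Lps (26 higher), -0.22 for Pic, 0.0094 for Cpg (16 lower) and 0.0042 for Grd (16 higher), and Mrps34 turned to 0.001 for Grd late. Without 24 h, the late medians were -0.10 for Lps, -0.33 for Pic and -0.12 for Grd.

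Leaving out 1 array at a time, the lower members in the middle window numbered 60 to 61 for Lps, 52 to 57 for Pic, 38 to 43 for Pam, 46 to 49 for Cpg and 48 to 51 for Grd. The higher members for Cpg early numbered 3 to 7, those falling between middle and late 2 to 6 for Pam and 3 to 6 for Grd, and the Grd late median ran between -0.10 and -0.045, where -0.10 was without replicate 1 at 12 h. The Control trend gave 0 to 6 members falling and 0 to 2 rising.

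The replicate block, which the pairing check did not call for, gave 61 members lower for Lps middle with a median of -0.41 and changed no count or median of the members by more than the limits used here. With plate column as a block, the Cpg middle median was -0.29, and within columns 10, 11 and 12 it was -0.25, -0.34 and -0.21.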

Other observations

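Genes that act on mitochondrial ribosomes or on the expression of mitochondrial DNA were followed beside the members, with lists chosen with earlier results known. Of 27 listed symbols of assembly factors, some of them older names of the same gene, 13 were measured. In the middle window 6 were lower and 2 higher with Lps, near the shares of all genes (47.8% and 26.2%), among them Ngrn (-0.92), Mtg1 (-0.61) and Mtg2 (-0.61), the last 2 being GTPases of ribosome assembly. In the late window 0 were lower and 7 higher with Lps, 0 and 6 with Pam, 0 and 5 with Cpg, 0 and 5 with Grd, and 2 and 4 with Pic. Of all genes, 35.3% were lower and 27.5% higher with Lps late, 31.7% and 23.6% with Pam, 31.4% and 22.7% with Cpg, 32.4% and 25.5% with Grd, and 38.5% and 26.9% with Pic. Tfb1m, which methylates the small ribosomal RNA, was higher with Pam late (0.64), and Mrm1, an RNA methyltransferase, was higher with Lps late (0.55). Fastkd2 was also higher with Lps late (0.53).

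Of 13 listed regulators of mitochondrial gene expression 11 were measured, of which 7 were lower and 1 higher with Lps in the middle window, against 47.8% and 26.2% of all genes. Ppargc1b, a transcriptional coactivator of mitochondrial biogenesis, read 37.6, 55.2 and 62.2 with Lps and 218, 255 and 269 with Pic in the middle window, against 263, 516 and 605 in Control. The log2 differences were -3.37 with Cpg, -3.26 with Grd, -3.17 with Lps, -2.70 with Pam and -0.90 with Pic. Tfb2m, a factor for the start of mitochondrial transcription, read 56.8, 62.8 and 74.4 with Lps, against 132, 160 and 168 in Control (log2 difference -1.25), and had -1.10 with Pic. Polrmt, the mitochondrial RNA polymerase, had -1.09 with Pic, -0.80 with Lps and 0.01 with Pam. The late differences named by the rule were -1.71 for Ppargc1b with Grd, -1.16 for Myc with Lps and -0.95 for Tfb2m with Pic. Myc was dim late with Lps (20, 25.2 and 30.2), with 1 of 6 arrays at the floor. All these were tested with limma, and the Ppargc1b, Tfb2m and Polrmt values with Lps and Pic passed the threshold.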
